A study of Mus musculus with 2 samples.

Results

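The genes described here encode histone methyltransferases of the MLL and trithorax type and the subunits that work with them. The 10 genes are Kmt2a, Kmt2b, Kmt2c, Kmt2d, Setd1a, Dot1l, Men1, Wdr5, Ash2l and Rbbp5. They were taken by symbol, through the gene identifier without its version, from the 43346 mouse genes of the deposited tables, and all 10 were found. Their level was not used to choose them. RNA came from common myeloid progenitors (CMP), bone marrow cells that give rise to granulocytes, monocytes, red cells and platelets. The study holds 1 group of 2 total RNA libraries, replicate 1 and replicate 2, each made from 100 primary cells of adult male C57BL/6J mice 5 to 6 weeks old, with no treatment or engineered allele named, and with RNA over 200 nucleotides kept. The labels call the libraries biological replicates but give them the same donor identifier, so the spread between them may be technical. Intervals of differences between genes use that spread. The exact binomial and Fisher tests and the intervals of transcript shares cover counting error alone. There is no second condition, and the comparisons are between genes within CMP and between replicate 1 and replicate 2.

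The SET1 and MLL enzymes add methyl groups to lysine 4 of histone H3 at promoters and enhancers, in complexes named COMPASS after the yeast assembly. Each enzyme is nearly inactive alone and works on a shared core that includes WDR5, RBBP5 and ASH2L, while menin tethers the KMT2A and KMT2B complexes to chromatin. DOT1L lacks the SET domain of the other enzymes and methylates lysine 79 of histone H3 in transcribed genes. In human leukaemia, translocations fuse the start of KMT2A to partners that include proteins bound to DOT1L, and in mouse blood Kmt2a is needed for stem and progenitor cells and for Hoxa gene expression.

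The libraries held 28916263 and 26426710 expected counts (reads assigned to genes, with shared reads divided) in replicate 1 and replicate 2, so that 3 counts, the level that 0 counts allow, correspond to 0.104 and 0.114 counts per 1000000. This floor covers counting error only. Of the 6 genes of the CMP gate, 3 were at 1 TPM or more in both libraries, where TPM is transcripts per 1000000 after division by length. Kit had 98.14 and 92.95 TPM and Cd34 had 74.54 and 55.4 TPM, Fcgr2b and Fcgr3 had 0.64 to 9.59 TPM, and Ly6a and Il7r, which should be absent, had 0 counts in both. Of 14 markers of T cells, B cells, neutrophils, macrophages, red cells, platelets and stroma, none reached 1 TPM in either library, 8 had 0 counts in both, and their summed level was 0.93 TPM in replicate 1 and 0.3 TPM in replicate 2. In pooled cells a gene read in fewer cells and a gene with less RNA per cell cannot be told apart, which holds for every level below.

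All 10 genes were detected in both libraries, against 44.9% of 21461 nuclear protein-coding genes. The median of the 10 was 26.7 TPM in replicate 1 and 31.1 TPM in replicate 2, against a median of 12.3 TPM in each library over nuclear protein-coding genes at 1 TPM or more. Single members stood between the 69.4th and 90.8th percentile of those detected genes. Together the 10 genes took 37124 and 40133 counts, 0.128% and 0.152% of the libraries. By mean TPM the order was Kmt2b, Kmt2a, Ash2l, Kmt2d, Setd1a, Kmt2c, Wdr5, Dot1l, Rbbp5 and Men1. Of the 9 steps between neighbours in this order, 1 had a 95% interval that left out 0, the step from Kmt2a down to Ash2l. The log2 ratio of Kmt2a over Ash2l was 0.65 (interval 0.02 to 1.29, from limma's moderated variances on log2(TPM + 1)). In the order by protein-coding transcripts alone, 0 of the 9 steps had such an interval. The steps follow the order of these same values, and intervals between genes are not adjusted for the number of steps or pairs.

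**Figure D1:**
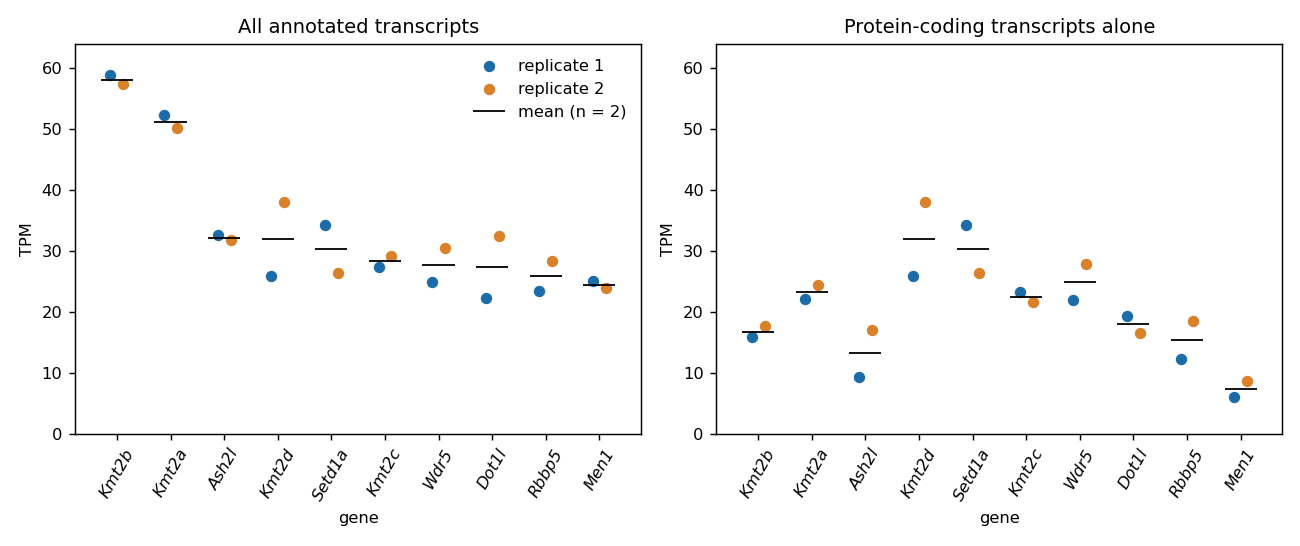
TPM of the 10 genes in replicate 1 and replicate 2 (points) with their mean (line, n = 2), over all annotated transcripts of a gene (left panel) and over its protein-coding transcripts alone (right panel). Kmt2b and Kmt2a lead on the left at 58.1 and 51.2 TPM, while on the right they stand at 16.8 and 23.3 TPM and Kmt2d has the highest mean, 32.0 TPM.

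Of the members, the MLL founder Kmt2a (ENSMUSG00000002028, chromosome 9, 44803355 to 44881296, minus strand, GRCm38) and its close paralog Kmt2b had the highest levels. Kmt2a encodes the methyltransferase that maintains Hox gene expression. It had 52.35 TPM in replicate 1 and 50.14 TPM in replicate 2 (51.2 ± 1.56, SD, n = 2), from 8262 and 8490 counts. Kmt2b (ENSMUSG00000006307, chromosome 7, 30568858 to 30588726, minus strand), which is known for methylating promoters in oocytes and embryonic stem cells, had 58.89 and 57.35 TPM (58.1 ± 1.09) from 2974 and 3283 counts. The values of Kmt2b lay above those of Kmt2a in both libraries, but the log2 ratio of Kmt2a over Kmt2b, -0.18, had an interval of -0.78 to 0.43. Over all transcripts, both Kmt2a and Kmt2b were higher than each of the other 8 members by an interval that left out 0. These comparisons made up all 16 of the 45 pairs of members whose interval left out 0, for instance Kmt2a over Setd1a (0.75 ± 0.30 SE, 0.09 to 1.40). In a fit without the variance trend 7 pairs had such an interval, and Kmt2a over Setd1a was not among them.

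These leading levels rested on short transcripts that the annotation does not class as protein-coding. Kmt2b-208, a retained-intron transcript of 651 bases, carried 65.25% of the gene's TPM in replicate 1 and 68.8% in replicate 2, from 399.25 and 395.65 counts. That is 13.4% (95% Wilson interval 12.2 to 14.7) and 12.1% (11 to 13.2) of the gene's counts. The full-length coding transcript Kmt2b-201 of 8469 bases took 1963.15 and 2497.56 counts, and 19.5% and 25.57% of the TPM. For Kmt2a the leading transcript was Kmt2a-204, of 2146 bases and annotated as a target of nonsense-mediated decay, with 57.82% and 43.93% of the TPM and 15.1% (14.3 to 15.8) and 10.6% (9.9 to 11.2) of the counts. Of the 651 bases of Kmt2b-208, 638 also lie in Kmt2b-201. Of the 2146 bases of Kmt2a-204, 2045 also lie in Kmt2a-202. Only 13 and 101 bases thus set the short forms apart from these coding transcripts, and other transcripts of the genes were not compared. Reads from the shared bases were divided between the forms by the authors' quantification. The intervals of count shares, here and below, leave out error in that division.

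With protein-coding transcripts alone, Kmt2a had 22.08 and 24.45 TPM and Kmt2b had 15.8 and 17.73 TPM, Kmt2a being the higher in both libraries. The log2 ratio of Kmt2a over Kmt2b was then 0.45 (-0.23 to 1.13), opposite in sign to that over all transcripts, and neither interval left out 0. Kmt2a over Setd1a turned to -0.36 (-1.01 to 0.29). Kmt2b over Kmt2d turned from 0.87 (0.21 to 1.52) over all transcripts to -0.87 (-1.55 to -0.19). Kmt2b over Setd1a turned from 0.93 (0.28 to 1.57) to -0.81 (-1.49 to -0.14). Of the 16 pairs above, only Kmt2a over Ash2l, Kmt2a over Men1 and Kmt2b over Men1 kept their direction with an interval that left out 0.

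The bases that set these transcripts apart are printed here from GENCODE M21 on GRCm38, 5′ to 3′ on the strand of the gene, because the shares above turn on them. Capitals mark the bases absent from the transcript named for comparison, and the lower-case flanks are shared coding exon. Kmt2a-202 carries 9 coding bases at the 3′ end of exon 14 (chr9:44833898-44833906) that Kmt2a-201 lacks. The own segment of Kmt2a-204 (chr9:44817605-44817705, compared with Kmt2a-202) follows directly on shared exon, and its first 60 of 101 bases are shown. The own segment of Kmt2b-208 (chr7:30577152-30577164) is its 5′ end, compared with Kmt2b-201.
Kmt2a-202: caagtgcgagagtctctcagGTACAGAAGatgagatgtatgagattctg
Kmt2a-201: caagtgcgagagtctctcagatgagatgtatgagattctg
Kmt2a-204: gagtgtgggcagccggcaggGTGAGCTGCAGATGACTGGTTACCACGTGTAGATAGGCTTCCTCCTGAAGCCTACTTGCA
Kmt2b-208: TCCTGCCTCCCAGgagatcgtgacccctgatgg

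The reads of the full-length forms of Kmt2a were assigned differently in the libraries. Kmt2a-202 had 6884.06 counts in replicate 1 and 954.53 in replicate 2, while Kmt2a-201 had 0 in replicate 1 and 6048.79 in replicate 2. Summed, they had 6884.06 and 7003.32 counts, or 39.2% and 41.8% of the gene's TPM. The full-length total was thus close between the libraries, and its assignment to one form or the other was not. The deposited lengths of the forms are 16470 and 16439 bases, while M21 gives Kmt2a-201 16461 bases, so the older annotation behind the counts differed between them by more than the 9 bases shown.

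Kmt2c and Kmt2d encode the large enzymes that place monomethyl marks at enhancers, and both are often mutated in human cancers. Kmt2d (ENSMUSG00000048154, chromosome 15, 98831669 to 98871204, minus strand) had the most reads of any member, 10482 and 13121 counts, and 25.93 and 38.1 TPM (32.0 ± 8.61). Kmt2c (ENSMUSG00000038056, chromosome 5, 25271798 to 25498783, minus strand) had 5473 and 5101 counts and 27.45 and 29.16 TPM (28.3 ± 1.21). Kmt2c was the higher in replicate 1 and Kmt2d in replicate 2, so their order was not the same in both libraries (log2 ratio of Kmt2c over Kmt2d -0.15, interval -0.85 to 0.55). In both genes the leading transcript was coding. Kmt2d-201, of 19823 bases, took 100% of the TPM in replicate 1 and 84.13% in replicate 2, where the 751-base coding fragment Kmt2d-203 took 14.39% on 66.19 counts. Kmt2c divided its TPM among Kmt2c-201 (43.31% and 35.02%), the shorter coding Kmt2c-208 (21.81% and 27.3%) and the retained-intron form Kmt2c-203 (15.47% and 21.09%). A processed pseudogene inside Kmt2c on the same strand, Gm20432, had 43 and 27 counts of its own.

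Setd1a encodes a catalytic subunit of the SET1 complexes, which are known for the bulk of H3K4 trimethylation and, in mice, for a role in blood progenitors. Setd1a (ENSMUSG00000042308, chromosome 7, 127776670 to 127800122, plus strand) had 34.3 and 26.44 TPM (30.4 ± 5.56) from 3045 and 3074 counts. Its counts were nearly equal while its TPM was higher in replicate 1, where the 730-base coding fragment Setd1a-203 took 28.37% of the TPM on 116.91 counts, against 3.43% on 10.56 counts in replicate 2. The paralog Setd1b, which is not among the 10, had 20.59 and 23.97 TPM, and the log2 ratio of Setd1a over Setd1b was 0.42 (-0.28 to 1.13). Of the summed TPM of the 6 H3K4 enzymes Kmt2a to Kmt2d, Setd1a and Setd1b, Kmt2b took 26.8% and 25.5% and Setd1b took 9.4% and 10.6%. With coding transcripts alone, the shares of Kmt2b were 11.9% and 12.1%, and those of Kmt2d were 19.5% and 25.9%.

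A transcript of Setd1a with a different start was assigned more counts in replicate 2. Setd1a-202, which starts at position 127777389, took 69.09% and 81.42% of the TPM and 92.4% (91.5 to 93.3) and 82.8% (81.4 to 84.1) of the counts. Setd1a-201 starts upstream, at 127776670, and took 113.35 counts in replicate 1 and 519.28 in replicate 2. Of its 6487 bases, 5802 also lie in Setd1a-202, so these counts depend on how shared reads were divided. Both encode a reading frame of 5148 bases. The window around the downstream start (chr7:127777139-127777438, plus strand, RefSeq on GRCm38.p6) is printed because most of the gene's counts went to the transcript that starts there. Capitals mark the 50 bases from the start site on, and the window holds 35 CpG.
Setd1a: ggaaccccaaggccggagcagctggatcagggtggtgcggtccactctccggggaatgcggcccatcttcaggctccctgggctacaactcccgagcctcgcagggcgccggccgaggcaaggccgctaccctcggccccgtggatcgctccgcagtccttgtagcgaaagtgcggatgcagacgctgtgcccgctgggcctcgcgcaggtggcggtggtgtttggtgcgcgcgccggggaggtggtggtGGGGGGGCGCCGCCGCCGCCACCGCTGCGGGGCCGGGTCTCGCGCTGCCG

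Dot1l (ENSMUSG00000061589, chromosome 10, 80755206 to 80795461, plus strand), the H3K79 enzyme, had 22.3 and 32.52 TPM (27.4 ± 7.23) from 2502 and 2258 counts. It thus had fewer counts but more TPM in replicate 2. There the retained-intron form Dot1l-204, of 531 bases, took 45.22% of the TPM on 111.35 counts, while it had 0 counts in replicate 1. The coding transcript Dot1l-201 of 6808 bases took 96.0% (95.1 to 96.7) and 89.5% (88.2 to 90.7) of the counts but 78.66% and 45.61% of the TPM. With coding transcripts alone Dot1l had 19.38 and 16.56 TPM, the higher value then being in replicate 1. Dot1l was below Kmt2a over all transcripts (log2 ratio -0.90 ± 0.31 SE, -1.58 to -0.23), but the interval held 0 in a fit without the variance trend and with coding transcripts alone (-0.36, -1.03 to 0.32). Of the 531 bases of Dot1l-204, 350 are its own (chr10:80766238-80766587, compared with Dot1l-201), and the first 60 of them are in capitals here, after the shared coding exon in lower case.
Dot1l-204: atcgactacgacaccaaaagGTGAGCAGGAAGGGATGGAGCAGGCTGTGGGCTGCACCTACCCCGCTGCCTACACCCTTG

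Men1, which encodes the tumour suppressor menin, had the lowest mean TPM of the 10. It had the fewest counts in replicate 1, while in replicate 2 Rbbp5, with 849, had fewer. Men1 (ENSMUSG00000024947, chromosome 19, 6334979 to 6340891, plus strand) had 25.01 and 23.97 TPM (24.5 ± 0.735) from 611 and 1034 counts. The TPM values were close while the counts differed, since the TPM-weighted length of the gene was 1334 bases in replicate 1 and 2266 bases in replicate 2. The leading transcript was not the same in both libraries. Men1-212, a 664-base form annotated as a target of nonsense-mediated decay, took 67.93% of the TPM in replicate 1 and 25.27% in replicate 2, from 181.05 and 62.36 counts. Men1-209, a retained-intron form of 3002 bases, took 7.94% and 38.87%, from 116.57 and 542.61 counts. Coding transcripts held 24.2% and 35.8% of the TPM, or 6.04 and 8.59 TPM, so that menin's coding RNA was the lowest of the 10 genes in both libraries.

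Men1 lay below Kmt2a and Psip1, the partners menin is known to join. The log2 ratio of Men1 over Kmt2a was -1.04 ± 0.30 SE (-1.69 to -0.38), and that over Psip1, which encodes the chromatin-binding partner LEDGF, was -1.63 ± 0.29 SE (-2.28 to -0.99). With coding transcripts alone the ratios were -1.56 (-2.36 to -0.76) and -2.98 (-3.74 to -2.23). All 664 bases of Men1-212 also lie in the coding transcript Men1-203, so it has no segment of its own. Men1-209 has a continuous segment of 406 bases that Men1-203 lacks (chr19:6338420-6338825), the first 60 of which are in capitals after the shared coding exon.
Men1-209: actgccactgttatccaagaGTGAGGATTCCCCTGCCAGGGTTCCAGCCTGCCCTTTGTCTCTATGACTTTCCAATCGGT

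The core subunits that the KMT2 and SETD1 enzymes share had mean levels of 25.9 to 32.2 TPM. Ash2l (ENSMUSG00000031575, chromosome 8, 25815996 to 25847694, minus strand) had 32.57 and 31.79 TPM (32.2 ± 0.552) from 1368 and 1328 counts. Wdr5 (ENSMUSG00000026917, chromosome 2, 27515157 to 27536535, plus strand), the propeller protein that contacts enzyme and core, had 24.87 and 30.44 TPM (27.7 ± 3.94) from 1275 and 1595 counts. Rbbp5 (ENSMUSG00000026439, chromosome 1, 132477365 to 132505659, plus strand) had 23.41 and 28.31 TPM (25.9 ± 3.46) from 1131.96 and 849 counts. Ash2l was the highest of these subunits in both libraries, but no pair among them had an interval without 0. The log2 ratio was 0.09 for Wdr5 over Rbbp5 (-0.61 to 0.79), 0.31 for Ash2l over Rbbp5 (-0.37 to 1.00) and -0.22 for Wdr5 over Ash2l (-0.90 to 0.46). These intervals reach a log2 difference of 1.00, so a 2-fold difference between subunits lies at their edge.

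The coding part of these subunits was less alike. Wdr5 was almost all coding, with Wdr5-201 at 88.1% and 91.78% of the TPM, and had 21.91 and 27.94 coding TPM. Ash2l had 9.29 and 17.08 coding TPM, since coding transcripts took 28.5% of its TPM in replicate 1 and 53.7% in replicate 2. Its leading transcript changed with the library, the decay-annotated Ash2l-205 taking 32.41% and 11.6% and the coding Ash2l-210 taking 21.2% and 40.73%. With coding transcripts alone, Wdr5 over Ash2l was 0.92 (0.16 to 1.67), opposite in sign to the ratio over all transcripts and with an interval that left out 0. Ash2l over Rbbp5 was then -0.24 (-1.04 to 0.56). In replicate 2 the coding level of Rbbp5 held 8.08 TPM from the 339-base Rbbp5-204, on 29.76 counts. It also held 2.96 TPM from the 716-base Rbbp5-205, on 33.62 counts. Coding ratios are thus not free of short transcripts with few counts.

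Rbbp5 had 12.34 and 18.52 coding TPM. Its leading transcript, the single-exon retained-intron form Rbbp5-203 of 1923 bases, took 47.29% and 34.6% of the TPM, and 1892 of its bases also lie in the coding Rbbp5-201. Rbbp5-201 took 29.81% and 6.27%, and Rbbp5-207 took 4.65% and 20.12%. The 339-base coding fragment Rbbp5-204 had 0 counts in replicate 1 and took 28.55% of the TPM in replicate 2, on 29.76 counts. The 31 bases of Rbbp5-203 that Rbbp5-201 lacks (chr1:132503733-132503763) are in capitals, followed by the shared coding exon.
Rbbp5-203: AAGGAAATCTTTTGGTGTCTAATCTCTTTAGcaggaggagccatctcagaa

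**Figure D2:**
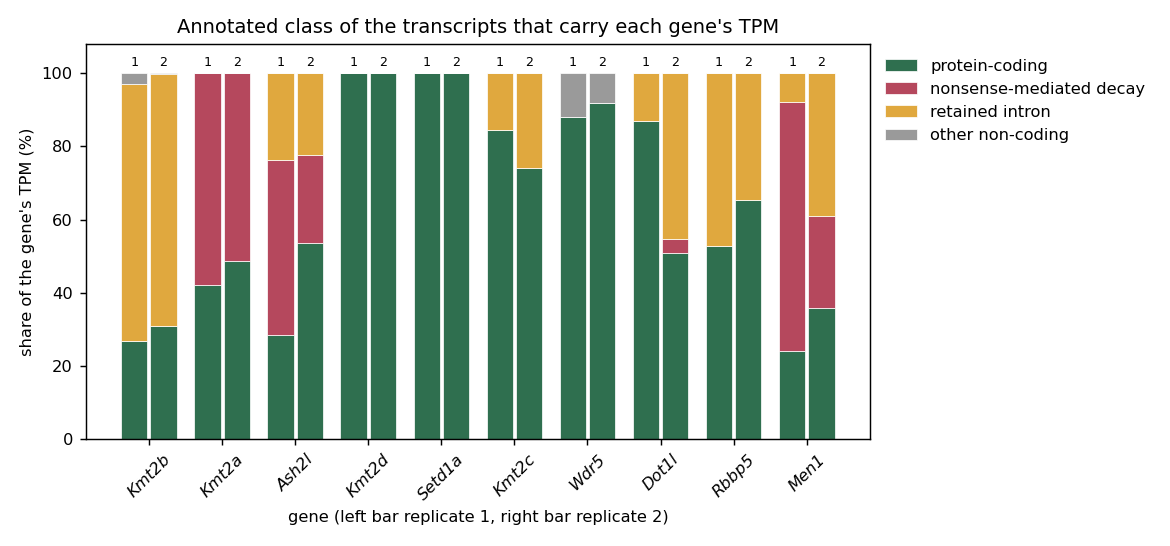
Share of each gene's TPM (percent, y axis) carried by transcripts annotated as protein-coding, nonsense-mediated decay, retained intron or other non-coding, with replicate 1 as the left bar and replicate 2 as the right bar of each gene. Kmt2d and Setd1a are at 100% protein-coding in both libraries, while Men1 is at 24.2% and 35.8% and Kmt2b at 26.8% and 30.9%.

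Across the 10 genes, the coding share of TPM had a median of 68.6% in replicate 1 and 59.6% in replicate 2. Over 9209 nuclear protein-coding genes with at least 50 counts in each library, the median was 100.0% in both. These backgrounds leave out genes with a transcript that has no class in M21, which no member has. Fewer than 50% of the TPM were coding in 4 members in replicate 1 and 3 members in replicate 2, against 16.7% and 14.9% of those genes. The 9209 genes include genes with 1 transcript, whose coding share can only be all or none, while the members have 4 to 12 transcripts. This background is thus unlike the members. The leading transcript by mean share was not coding in 4 of the 10 (Kmt2a, Kmt2b, Men1 and Rbbp5), or 40%. Over 6846 nuclear protein-coding genes tested for transcript shares it was not coding in 16.3%, and over the 3181 of them with at least 611 counts in each library in 13.7%.

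The number of reads followed transcript length. Counts ranged from 611 for Men1 to 13121 for Kmt2d, and the highest mean count was 14.3 times the lowest, while the highest mean TPM was 2.37 times the lowest and the highest mean coding TPM 4.38 times the lowest. Over the 10 genes, the rank correlation of weighted length with count was 0.95, that of count with TPM was 0.66, and that of weighted length with TPM was 0.48, given as descriptions of genes that share the same libraries. Kmt2d had the greatest weighted length, 19823 and 16963 bases, and the most counts in both libraries. The shortest gene with the fewest counts was Men1 in replicate 1 (1334 bases, 611 counts) and Rbbp5 in replicate 2 (1624 bases, 849 counts).

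**Figure D3:**
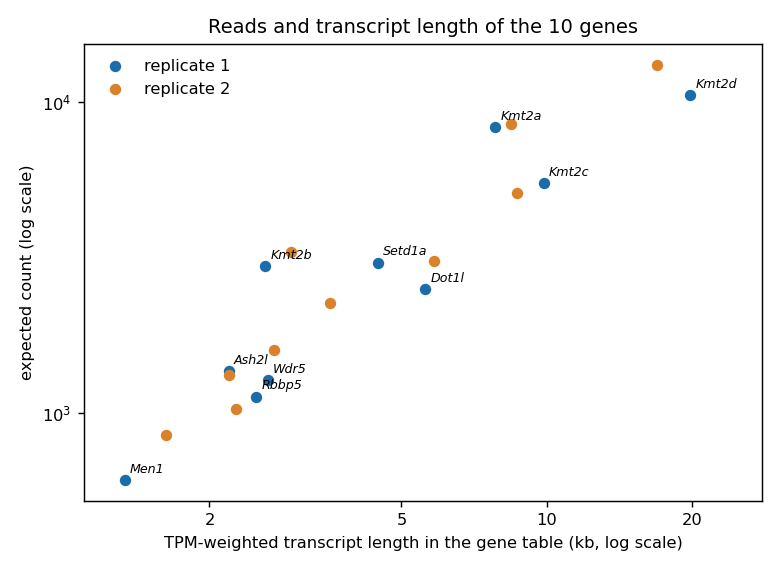
Expected count of each of the 10 genes (y axis, log scale) against the TPM-weighted length of its transcripts in kilobases (x axis, log scale), with replicate 1 and replicate 2 as separate points and names beside replicate 1. Counts run from 611 for Men1 to 13121 for Kmt2d and follow length.

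The counts of these genes differed by less than 2-fold between the libraries. In an exact binomial test on counts scaled by TMM, adjusted by Benjamini-Hochberg over 13616 genes, 7 of the 10 differed, with 78.2% of all genes tested called. Of the members 3 were higher in replicate 1, with 37.6% of all genes tested called in that direction, and 4 were higher in replicate 2, with 40.6% of all genes tested. A share of 7 in 10 is therefore near the background, and the test compares the reads of these libraries and not conditions. Men1 had the largest difference, with 611 counts in replicate 1 against 1034 in replicate 2 (log2 of replicate 1 over replicate 2 -0.73, adjusted p = 5.15e-23). Rbbp5 was higher in replicate 1 (0.44, adjusted p = 3.44e-11), as were Dot1l (0.18, adjusted p = 4.71e-05) and Kmt2c (0.13, adjusted p = 8.06e-06). Kmt2d (-0.30, adjusted p = 7.26e-54), Wdr5 (-0.30, adjusted p = 1.15e-07) and Kmt2b (-0.11, adjusted p = 0.00255) were lower in replicate 1. Ash2l, Setd1a and Kmt2a did not pass, at log2 ratios of 0.07, 0.01 and -0.01.

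None of the 10 reached a 2-fold difference, which 30.2% of all genes tested did. That share includes genes with as few as 10 counts in their higher library, far below the counts of the members. The median size of the log2 difference was 0.15 over the members, 0.51 over all genes tested and 0.23 over the 4332 genes with at least 611 counts in each library, the lowest count of a member. With a dispersion added for the spread between the libraries (edgeR's exact test, common dispersion 0.575, a coefficient of variation of 75.9%), 0 of 13616 genes and 0 members were called. Of all genes tested, 1541 had an unadjusted p under 0.05, and the lowest unadjusted p of a member was 0.663. That dispersion was estimated from these same libraries taken as 1 group, so it holds the differences tested. Few calls could result, and their absence decides nothing about the members. Under scaling by total counts, which moved the median of all genes to -0.23 against -0.03, Kmt2c, Dot1l, Ash2l and Setd1a turned to lower in replicate 1.

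**Figure D4:**
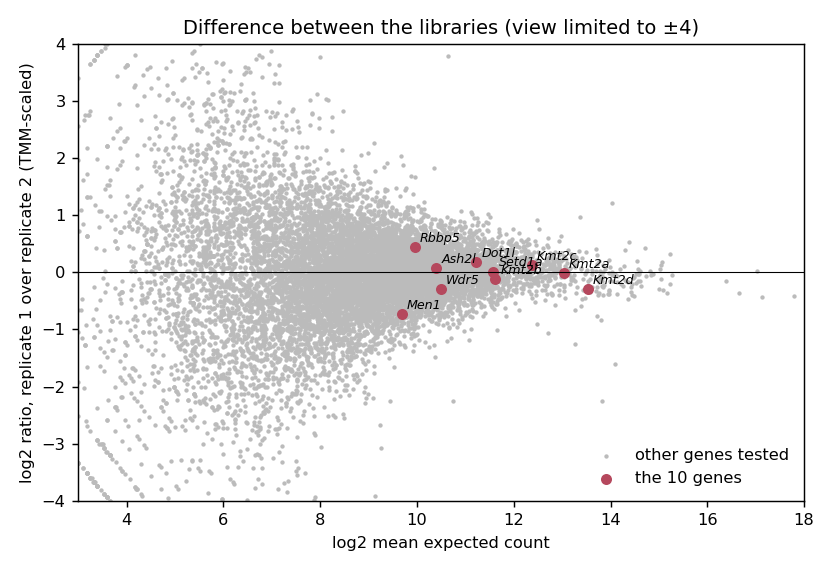
Log2 ratio of TMM-scaled counts, replicate 1 over replicate 2 (y axis, limited to values within 4 of 0), against the log2 mean expected count (x axis) for all genes tested (grey) and the 10 members (red). The members lie between -0.73 (Men1) and 0.44 (Rbbp5), within the cloud of genes of like count.

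For several genes the direction of the library difference was not the same by TPM as by counts. With TMM-scaled counts, 6 of the 10 had opposite signs in counts and in TPM (Kmt2a, Kmt2b, Kmt2c, Dot1l, Rbbp5 and Men1), against 16.5% of the 4332 genes with at least 611 counts in each library. Under total-count scaling there were also 6, against 25.1% of those genes, but Ash2l and Setd1a took the place of Kmt2c and Dot1l. The other 4, Kmt2a, Kmt2b, Rbbp5 and Men1, were opposite under both scalings. For Kmt2a the TMM-scaled log2 ratio of replicate 1 over replicate 2 was near 0, at -0.01 in counts against 0.06 in TPM. The TPM ratios of Kmt2b and Men1 were near 0 as well, at 0.04 and 0.06, so the sign in TPM rests on small differences in these genes. For Rbbp5 it was 0.44 in TMM-scaled counts, 0.24 under total-count scaling and -0.27 in TPM. The TPM-weighted length of Rbbp5 was 2500 bases in replicate 1 and 1624 bases in replicate 2.

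The make-up of transcripts differed between the libraries at about the background rate. The count share of the leading transcript differed in 8 of the 10 genes (Fisher's exact test, adjusted over 7354 genes), with 77% of all genes tested called. The largest change was in Men1, where Men1-212 held 29.6% (26.1 to 33.4) and 6.0% (4.7 to 7.6) of the counts (adjusted p = 3.38e-37). For Ash2l-210 the shares were 21.7% (19.5 to 23.9) and 41.4% (38.8 to 44.1; adjusted p = 4.01e-28). Kmt2b-208 (adjusted p = 0.137) and Wdr5-201 (adjusted p = 0.118) did not pass. Both the tests and the intervals take assigned counts as observed reads, so error in the assignment is left out. The median size of the difference was 5.7 percentage points over the members, 11.5 over all genes tested and 8.5 over the 3368 genes with at least 611 counts in each library, of which 81.9% were called.

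The start sites of most members were rich in CpG. A RefSeq window of 250 bases before to 50 bases after the start (GRCm38.p6) was matched for 8 of the 10, all but Kmt2b and Ash2l. Their median was 68.2% G and C and 31 CpG per window (range 11 to 56), against 52.7% and 7 CpG over all 32817 windows. Men1 has several windows, and the first by position, with 11 CpG, was used, while the others have 16. Members are counted here by gene and the background by window. The letters GGGCGG, bound by SP factors, were found on either strand in 6 of the 8 (Kmt2a, Kmt2c, Kmt2d, Dot1l, Men1 and Wdr5) and in 35.6% of all windows. CCAAT was found in 1 (Men1) against 37.4% of all windows, and CCGGAAG, an ETS core, in 1 (Dot1l) against 8.86%. The YY1 letters AAGATGGCG were also found in Dot1l alone, against 1.4% of all windows. TATAAA, in 13.6% of all windows, and the NRF1 palindrome, in 0.966%, were found in 0 of the 8. The motifs were searched on both strands, and matches are descriptions of sequence only. The window of Kmt2a (chr9:44881240-44881539, minus strand), the founder of the family and its second highest gene by TPM, shows the pattern, with the 5 matches to GGGCGG in capitals, read as CCGCCC where the match is on the other strand.
Kmt2a: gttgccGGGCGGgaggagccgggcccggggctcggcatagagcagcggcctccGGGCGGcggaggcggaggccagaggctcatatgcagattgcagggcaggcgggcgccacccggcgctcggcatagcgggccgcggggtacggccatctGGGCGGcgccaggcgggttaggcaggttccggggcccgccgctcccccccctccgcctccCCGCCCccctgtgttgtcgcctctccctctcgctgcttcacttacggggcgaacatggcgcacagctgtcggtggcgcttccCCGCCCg

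The partners of these complexes were detected as widely as the 10 genes. All 15 other COMPASS subunits were at 1 TPM or more in both libraries. Their median was 18.1 TPM in replicate 1 and 12.8 TPM in replicate 2. Psip1 led with 83.38 and 73.22 TPM. Hcfc1, which encodes a cofactor of the SET1 and MLL complexes, had 69.68 and 61.69 TPM, and Dpy30, the small core subunit that binds ASH2L, had 56.14 and 57.47 TPM. Ncoa6, a subunit particular to the KMT2C and KMT2D complexes, had 26.62 and 20.64 TPM. All 7 genes of the DOT1L and elongation partners were detected as well, at medians of 16.2 and 16.8 TPM. Mllt10, which encodes the DOT1L cofactor AF10, had 51.81 and 65.53 TPM, and Mllt3, which encodes the reader AF9, had 13.29 and 16.83 TPM. The elongation scaffold genes Aff4 and Aff1 had 51.83 and 29.37 TPM and 34.91 and 33.29 TPM. With coding transcripts alone, 14 of the 15 COMPASS subunits and all 7 DOT1L partners stayed at 1 TPM or more in both libraries, at medians of 13.2 and 12 TPM and of 11.9 and 12.5 TPM, beside 20.6 and 20.1 TPM for the 10 members. The exception was Pagr1a, whose 1 transcript in the tables has no coding class in M21.

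**Figure D5:**
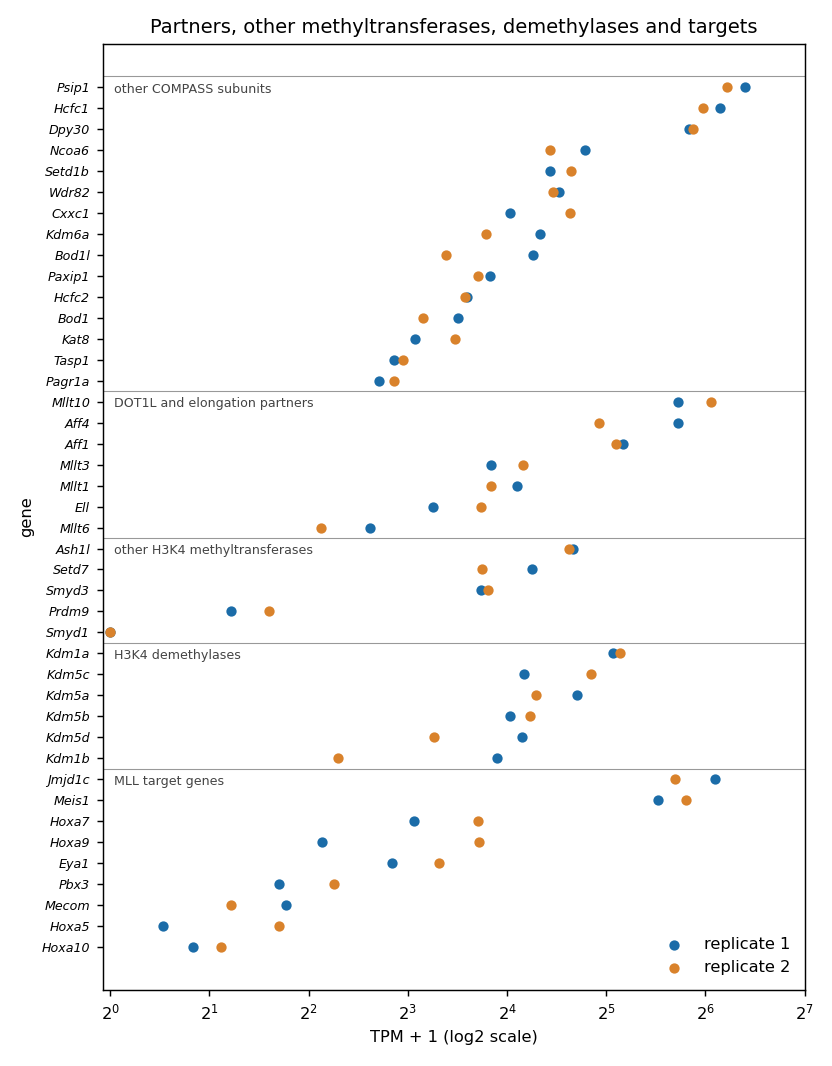
TPM plus 1 (x axis, log2 scale) of each gene of the lists of other COMPASS subunits, DOT1L and elongation partners, other H3K4 methyltransferases, H3K4 demethylases and MLL target genes, in replicate 1 and replicate 2. Psip1 reaches 83.38 and 73.22 TPM, and Smyd1 is at 0 in both libraries.

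Outside the MLL and SET1 family, 4 of 5 other genes listed here as H3K4 methyltransferases were detected in both libraries. Ash1l, a trithorax-group gene, had 24.34 and 23.75 TPM, Setd7 had 18.01 and 12.43 TPM, and Smyd3 had 12.31 and 13.03 TPM. Prdm9, known from meiotic recombination in germ cells, had 1.32 and 2.03 TPM from 90 and 50 counts. Smyd1, an enzyme of heart and skeletal muscle, had 0 counts in both. The enzymes that remove the mark were all detected. Of these 6 genes, Kdm1a, which encodes LSD1, had 32.49 and 34.14 TPM, Kdm5c 17.04 and 27.8 TPM, Kdm5a 25.07 and 18.6 TPM, and Kdm5b 15.3 and 17.8 TPM. The demethylase medians were 16.9 and 18.2 TPM, below the medians of 26.7 and 31.1 TPM of the 10 members. A transcript of Kdm5a that held most of its counts is not in M21 and has no class, so no coding level is given for the gene. The other 5 demethylase genes kept 1 coding TPM or more in both libraries, as did 3 of the 5 methyltransferase genes, Prdm9 dropping out at 0.48 coding TPM in replicate 2.

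Of 9 genes known as targets of KMT2A or of its fusions, 7 were detected in both libraries, at medians of 3.4 TPM in replicate 1 and 8.96 TPM in replicate 2. Jmjd1c had 67.45 and 50.59 TPM and Meis1 had 45.06 and 55.02 TPM, beside 52.35 and 50.14 TPM for Kmt2a. The Hoxa genes were lower, with Hoxa7 at 7.36 and 12.06 TPM and Hoxa9 at 3.4 and 12.13 TPM. Hoxa5 and Hoxa10 were below 1 TPM in replicate 1, at 0.45 and 0.78 TPM, and at 2.25 and 1.17 TPM in replicate 2. With coding transcripts alone 6 of the 9 were detected in both libraries, at medians of 1.89 and 2.92 TPM. Meis1 then had 25.1 and 16.77 TPM, Hoxa7 1.89 and 1.16 TPM, and Hoxa9 2.33 and 8.07 TPM. Hoxa5 kept 0.45 and 2.25 TPM, and Hoxa10 had 0 coding TPM in both libraries.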

How the data were processed

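Total RNA-seq of 2 CMP libraries was analysed from deposited gene and transcript tables on mm10 with GENCODE M4, per the file headers and accompanying text. For the aligner and quantifier, names and versions were not stated in the sources used here. The deposited expected counts are estimated reads per gene or transcript, the deposited TPM values are per 1000000 over all table entries (26345 tRNA, spike-in and phiX entries included), and the deposited percent values give each transcript's share of its gene's TPM. The deposited FPKM values were not used. Symbols, coordinates and transcript types came from GENCODE M21 on the same build (42462 of 43346 genes matched). Of 103639 transcripts, 2129 are not in M21 and have no class.

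The members, lists, pairs and tests were chosen with earlier results of these data known. Named were all members, the 4 highest genes of each list, genes below 1 TPM in both libraries (the 14 other-cell-type markers only as a sum), 10 pairs, and transcripts that led or held 20% or more, a few smaller ones, and Hoxa5 and Hoxa10, Pagr1a and Gm20432, being added after their values were seen.

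Counts were rounded and compared by a two-sided exact binomial test with a minimum of 10 counts in either library and TMM from edgeR 4.0.16, and leading transcripts by Fisher's exact test with a minimum of 50 counts in each. Both p-values were adjusted at 0.05. Levels were fitted with limma 3.58.1 on log2(TPM + 1) with a variance trend over 10757 genes, which understates differences of low genes. The scripts were tested on simulated data. DESeq2 1.42.0 gave alternative size factors. R 4.3.3 and Python 3.11.15 were used. Alternatives were other scalings, thresholds and pseudocounts, the dispersion-based test, posterior mean TPM, no length correction, no variance trend and each library alone. Protein-coding transcripts alone in the levels and lists, and the comparison of count and TPM signs under each scaling, were chosen after seeing the data. Some genes that M21 places over members, such as Gm49388 over Setd1a on the same strand, have no row in the tables and were not analysed here, and no strand setting is given in the sources used here.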

Additional observations from a re-analysis of the deposited data

How the results depend on the processing

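The 10 genes were detected under every threshold tried (0.5, 1 and 5 TPM) and in each library alone, and at 5 TPM the MLL target genes detected in both libraries were 4 instead of 7. Of 45 pairs of members, 16 had an interval without 0, against 19 with protein-coding transcripts alone and 38 without length correction. Most of the 19 pairs were not among the 16. Without a variance trend there were 7, and Kmt2a over Setd1a and Dot1l over Kmt2a lost the call. Without length correction Kmt2a over Kmt2b was 1.41 and Wdr5 over Ash2l 0.08, opposite in sign to the TPM values. Among the 10 named pairs, Kmt2a over Kmt2b (0.45), Kmt2a over Setd1a (-0.36), Ash2l over Rbbp5 (-0.24) and Wdr5 over Ash2l (0.92) were reversed with protein-coding transcripts alone. Other pairs reversed too. Of these, Kmt2b over Kmt2d (-0.87) and Kmt2b over Setd1a (-0.81) had intervals without 0 in both fits. In single libraries Kmt2c over Kmt2d ranged from -0.37 to 0.08. Under total-count scaling Ash2l (-0.13), Setd1a (-0.19), Kmt2c (-0.07) and Dot1l (-0.03) reversed between the libraries, and 9 members were called instead of 7. DESeq2 size factors and no count minimum each called 7. At the common dispersion, which holds the tested differences, 0 members and 0 genes were called. Beyond the construction of each alternative, the cause was not tested. No samples could be paired, because both libraries belong to 1 group. The intervals between genes treat the genes of a pair as independent, although both were read in the same libraries. With 2 libraries, outlying samples could not be looked for. Short transcripts with few counts limit the TPM of several genes, also with protein-coding transcripts alone.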
